A study of Mus musculus with 8 samples.

Results

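Krt5, Krt14, Krt15 and Krt17, grouped here as keratins of the basal squamous layer, were examined in RNA-seq libraries of laser-captured mouse endometrium. They were chosen by their fold change between genotypes in earlier results of these same libraries, so that contrast is given as a description with no test. The 4 genes were taken by symbol from the 52325 genes of the deposited estimated-count table. The study compared 4 Thra1PV/+ with 4 WT female mice, all in metestrus. Thra1PV/+ mice carry the dominant negative PV mutation of thyroid hormone receptor alpha 1 in 1 allele of Thra, and WT mice carry none. The age of the mice behind these libraries was not given in the sources used here.

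Keratins build the intermediate filaments of epithelial cells, and a filament forms only from pairs of a type II and a type I protein. Simple epithelium, such as the lining and glands of the endometrium, uses Krt8 with Krt18 and also Krt7 and Krt19. The basal layer of stratified squamous epithelium, as in skin and vagina, uses the type II keratin Krt5 with the type I keratins Krt14 and Krt15, whereas Krt17, another type I keratin, marks skin appendages and stressed or wounded epithelium.

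The libraries held between 48791883 and 59819099 estimated counts, and 18174 genes passed the filter on low counts. CPM, the counts scaled to library size after TMM normalization, compares a gene between libraries. TPM is the deposited per-length value, used here to compare genes within a library. The deposited TPM has the form that quantile normalization leaves, which keeps ranks within a library but can shift ratios and shares between genes. Thra itself had 80.1 ± 34.2 CPM (SD, n = 4) in Thra1PV/+ and 78.0 ± 33.7 CPM in WT endometrium (log2 fold change 0.04, SE 0.39, adjusted p = 0.987 by edgeR's quasi-likelihood test). Gene counts do not tell the PV allele from the normal one, so this value does not check the genotype labels. WT library 1 stood apart in smooth muscle genes (Acta2, Myh11 and 6 others), which summed to 12697 CPM. WT libraries 2 to 4 had sums of 533 to 1097 CPM, and Thra1PV/+ libraries had 125 to 639 CPM. Thra1PV/+ library 1 had the highest summed level of 8 endometrial stroma genes of its group, 5148 CPM against 430 to 1207 CPM. In tissue of mixed cells, fewer cells of a type and less RNA per cell cannot be told apart.

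All 4 genes lie on the minus strand of GRCm38. Krt15 (ENSMUSG00000054146.8) lies at chr11:100131758-100135928, Krt14 (ENSMUSG00000045545.8) at chr11:100203162-100207548 and Krt17 (ENSMUSG00000035557.9) at chr11:100256217-100261029, all within the type I keratin cluster. Krt5 (ENSMUSG00000061527.6) lies at chr15:101707070-101712898 in the type II cluster, where the annotation also places Gm44323 on the opposite strand. The following coding stretch of type I genes, from the annotated GRCm38 transcripts, is shown because reads from it bear on how well counts of the type I genes can be told apart. Each stretch spans 2 exons. In Krt14 the capitals mark the longest run identical to Krt17, 71 bases, and in the other genes they mark bases identical to Krt14 at the same place.
Krt14 (chr11:100204003-100204194): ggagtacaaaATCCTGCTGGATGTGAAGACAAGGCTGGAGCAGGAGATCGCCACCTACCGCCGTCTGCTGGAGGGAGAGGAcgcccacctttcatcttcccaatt
Krt17 (chr11:100257328-100257519): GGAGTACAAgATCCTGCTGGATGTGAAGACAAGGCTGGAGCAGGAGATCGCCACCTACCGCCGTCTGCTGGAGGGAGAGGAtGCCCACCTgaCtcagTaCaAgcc
Krt16 (chr11:100246498-100246696): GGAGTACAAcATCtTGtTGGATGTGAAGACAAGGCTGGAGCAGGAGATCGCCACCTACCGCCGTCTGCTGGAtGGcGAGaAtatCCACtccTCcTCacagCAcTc
Krt15 (chr11:100132606-100133077): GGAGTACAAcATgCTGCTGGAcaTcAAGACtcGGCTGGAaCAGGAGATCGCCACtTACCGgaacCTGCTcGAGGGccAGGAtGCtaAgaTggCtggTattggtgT

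Over these stretches Krt17 matched Krt14 at 92 positions (87.6%), Krt16 at 86 (81.9%) and Krt15 at 72 (68.6%). The stretch was placed on the longest run of Krt14 and Krt17, so the order of Krt17 and Krt16 here reflects that choice. Elsewhere in the coding sequence Krt14 and Krt16 shared a longer identical run, of 134 bases. Over whole transcripts, 29.2% of the 31-base words of Krt14 also occurred in another gene, mostly Krt16 and Krt17, against 15.8% for Krt17, 12.8% for Krt5 (mostly Krt6a) and 3.89% for Krt15. Salmon divides reads that fit several transcripts among them, so Krt14 and Krt17 counts are less certain than those of Krt15, and how far this moved them was not tested. The antisense neighbour of Krt5 could add uncertainty of the same kind if strand was not used in counting.

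The RefSeq promoter table held 2 of the 4 genes. The Krt14 entry started 1518 bases inside the annotated gene and was not used. The 250 bases before the Krt5 start (GRCm38.p6, minus strand, chr15:101712906-101713155) are shown because Krt5 was the most abundant of the group. Capitals mark matches, on either strand, of CACCC, the core of the box bound by Krüppel-like factors.
Krt5 promoter: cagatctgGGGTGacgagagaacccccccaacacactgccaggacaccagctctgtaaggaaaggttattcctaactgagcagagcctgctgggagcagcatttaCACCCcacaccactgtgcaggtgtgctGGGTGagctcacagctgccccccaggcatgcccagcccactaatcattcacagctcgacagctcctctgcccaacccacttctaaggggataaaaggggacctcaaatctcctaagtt
CACCC matched 3 times. Of all 32851 promoter windows, 52.0% held at least 1 such match. The window held no match, on either strand, to TATAAA, to AGGTCA (1 of the repeated hexamers that make up a thyroid hormone response element), to TGANTCA (AP-1) or to GCCNNNGGC (AP-2). The shares of all promoters with a match were 12.4%, 14.0%, 6.75% and 13.7%. Those letters are described only for this window. Only exact matches were sought, so near forms were not counted, such as the ATAAAA that the window holds.

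Krt5 was the highest of the group in Thra1PV/+ endometrium by mean CPM. The 4 Thra1PV/+ libraries had 897, 1673, 1930 and 1345 CPM, and the WT libraries had 0.305, 7.67, 18.1 and 7.87 CPM. The genotypes did not overlap, and the lowest Thra1PV/+ library was 49.6 times the highest WT library. The means were 1461 ± 446 CPM and 8.48 ± 7.30 CPM (SD, n = 4), a log2 fold change of 7.43 (SE 1.10). WT library 1 was the lowest of its group by a wide margin, with 16 estimated counts where WT libraries 2 to 4 had 376 to 909. Those 16 counts are 0.310 CPM by library size alone, with a 95% Wilson interval of 0.191 to 0.504 that covers counting error only.

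By CPM, Krt15, a type I partner of Krt5, varied least between Thra1PV/+ libraries in proportion to its mean. Its SD was 17.4% of the mean, against 30.5% for Krt5. By TPM Krt15 did not vary less than Krt5, with 661 ± 145 against 760 ± 152 TPM (SD, n = 4). Krt15 had 970, 784, 1110 and 783 CPM in Thra1PV/+ and 0.134, 10.7, 2.37 and 2.74 CPM in WT endometrium. Again the groups did not overlap, with a ratio of 73.3 between the lowest Thra1PV/+ and the highest WT library, and here WT library 2 was the highest of the WT libraries. The log2 fold change was 7.84 (SE 1.17).

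Krt14, the classical type I partner of Krt5, had 281, 583, 498 and 406 CPM in Thra1PV/+ and 0, 3.18, 10.8 and 2.32 CPM in WT endometrium. WT library 1 had no counts, which at its depth allows a share of up to 5.82e-06% of counts, taken as 3 counts and covering counting error only. The lowest Thra1PV/+ library was 26.1 times the highest WT library, WT library 3, and the log2 fold change was 6.76 (SE 1.35).

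Krt17 was the least abundant and had the smallest fold of the group. Its levels were 35.9, 71.3, 51.0 and 30.7 CPM in Thra1PV/+ libraries and 5.76, 0.939, 0.298 and 1.65 CPM in WT libraries. The groups did not overlap, but the lowest Thra1PV/+ library was only 5.32 times the highest WT library. The log2 fold change was 4.45 (SE 0.85), and 5.66 without WT library 1, the WT library with the most Krt17 (302 estimated counts).

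All 4 genes were thus higher in every Thra1PV/+ library than in any WT library. Across the 18174 genes tested, 3.55% had that pattern and 2.49% the opposite one, and as the contrast selected the 4 genes nothing is read from their share. The median log2 fold change of all genes tested was -0.05.

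**Figure D1:**
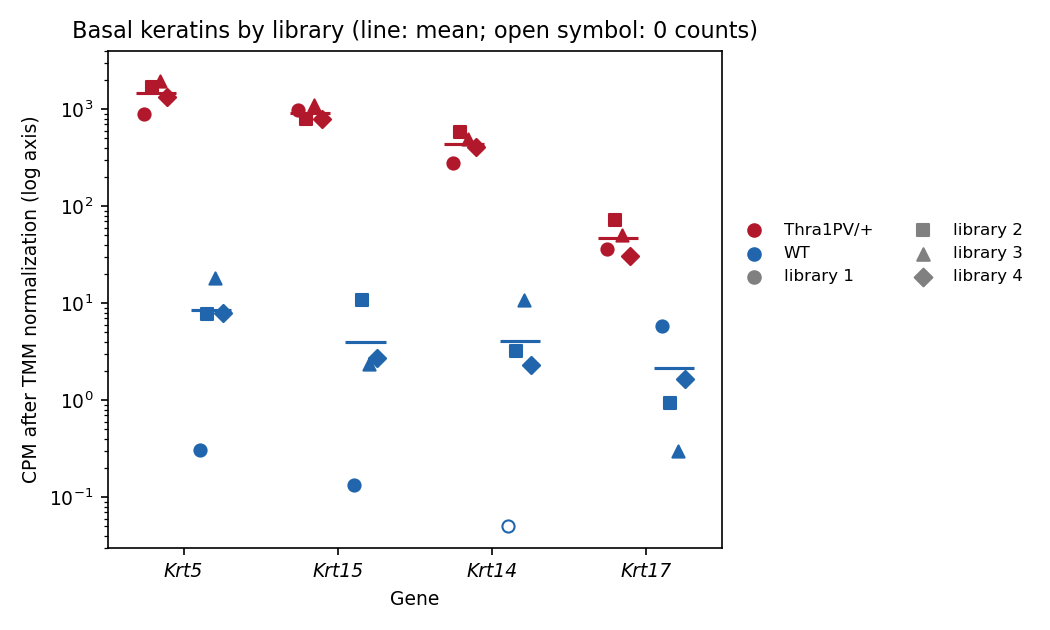
CPM after TMM normalization on a log axis for each basal keratin in the 4 Thra1PV/+ (red) and 4 WT (blue) libraries, with a line at each mean; marker shape gives the library number, and the open symbol, drawn at an arbitrary height, is a library with 0 counts. WT library 1 is lowest for Krt5, Krt14 and Krt15 and highest for Krt17.

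By TPM rank among all genes, Krt5 stood between 165 and 237 and Krt15 between 174 and 246 in the Thra1PV/+ libraries. Krt14 ranked between 314 and 553. Krt17 ranked between 2335 and 4650, far below the others. These ranges place Krt5 and Krt15 side by side, without a constant order: Krt15 ranked above Krt5 in Thra1PV/+ library 1 and below it in the other 3. In WT libraries the best rank of any member was 8368, that of Krt5 in library 3. The 4 genes together took 0.244%, 0.303%, 0.347% and 0.271% of all estimated counts in Thra1PV/+ libraries, and between 0.00063% and 0.00265% in WT libraries.

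Ratios between the members, per length and within a library, had a smaller SD in Thra1PV/+ than in WT endometrium for each pair with Krt5. The WT ratios rest on far fewer counts, and the difference in spread was not tested. From estimated counts divided by exon length, mean log2 ratios to Krt5 in Thra1PV/+ libraries were -1.40 (Krt14), -0.33 (Krt15) and -4.47 (Krt17). In WT libraries they were -0.94, -0.98 and -1.24. All other ratios here are of TPM. The Krt14 to Krt5 ratio was 0.396, 0.488, 0.342 and 0.389 in Thra1PV/+ libraries, with a mean log2 ratio of -1.32 ± 0.21 (SD, n = 4). It was 0.525, 0.807 and 0.474 in WT libraries 2, 3 and 4, with a mean log2 ratio of -0.77 ± 0.41 (SD, n = 3), and WT library 1 had no Krt14. Krt14 was therefore below Krt5 in every library, and the ranges of the genotypes overlapped.

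The Krt15 to Krt5 ratio was 1.52, 0.645, 0.769 and 0.754 in Thra1PV/+ libraries. In WT libraries it was 0.551, 1.82, 0.204 and 0.482, a wider range that contains all of the Thra1PV/+ values. The mean log2 ratios were -0.20 ± 0.55 and -0.84 ± 1.30 (SD, n = 4). Thra1PV/+ library 1 was the only one of its group with more Krt15 than Krt5, and it was also the library with the most stroma genes, whose part in the ratio was not tested.

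The Krt17 to Krt5 ratio was 0.0503, 0.0651, 0.0415 and 0.0339 in Thra1PV/+ libraries and 29.5, 0.171, 0.0281 and 0.330 in WT libraries. Its mean log2 value was -4.43 ± 0.40 against -1.10 ± 4.26 (SD, n = 4). The WT mean rested on WT library 1 and WT library 3. It was -3.10 without library 1 and 0.25 without library 3. In Thra1PV/+ libraries the type I genes of the group summed to between 1.15 and 1.97 times Krt5.

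**Figure D2:**
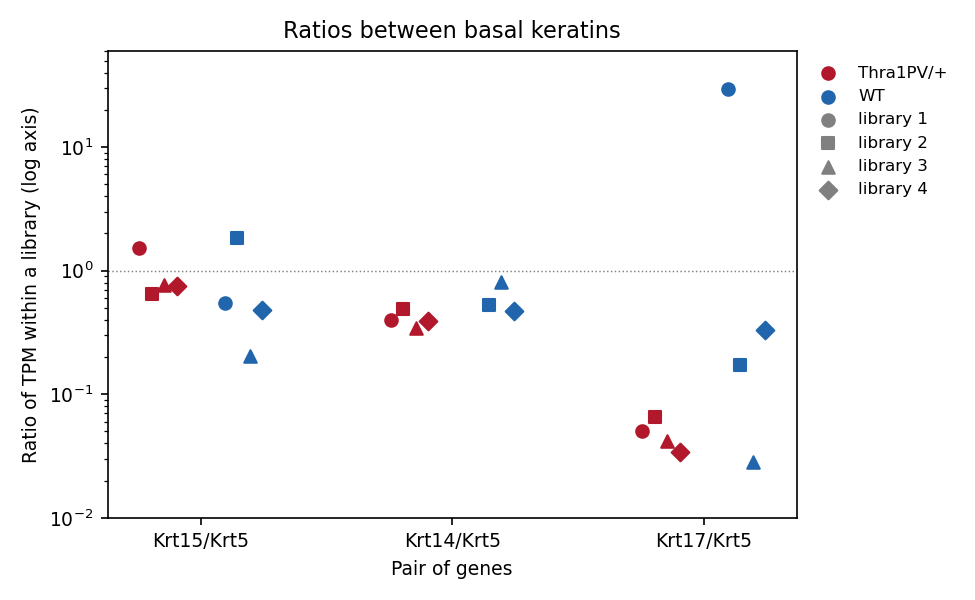
Ratio of TPM within each library on a log axis for Krt15, Krt14 and Krt17 over Krt5, by genotype and library (red Thra1PV/+, blue WT); the WT library with no Krt14 is left out. The 4 Thra1PV/+ ratios of Krt14 to Krt5 lie between 0.342 and 0.488, Krt15 exceeds Krt5 in Thra1PV/+ library 1 alone of its group, and the Krt17 to Krt5 ratio of WT library 1 is 29.5.

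Of all keratin TPM, the 4 members made up 51.4%, 41.4%, 42.0% and 41.8% in Thra1PV/+ libraries and 0.507%, 0.919%, 0.901% and 0.434% in WT libraries. Within that pool in Thra1PV/+ endometrium Krt5 took 42.9 ± 6.15%, Krt15 37.7 ± 9.39%, Krt14 17.4 ± 3.72% and Krt17 2.04 ± 0.634% (SD, n = 4). The simple keratins Krt7, Krt8, Krt18 and Krt19 made up 39.5 ± 6.02% in Thra1PV/+ and 95.4 ± 0.988% in WT libraries. In CPM none of these was called, and they overlapped between genotypes: Krt19 had 665 ± 243 against 680 ± 313 CPM, Krt8 766 ± 308 against 912 ± 459, Krt18 403 ± 127 against 481 ± 199 and Krt7 445 ± 126 against 305 ± 164. Their lower share came with no called fall in level. Of the 6 simple keratins tested, 0 were called by edgeR and 0 had an unadjusted p under 0.05, which 9.77% of all genes tested had.

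**Figure D3:**
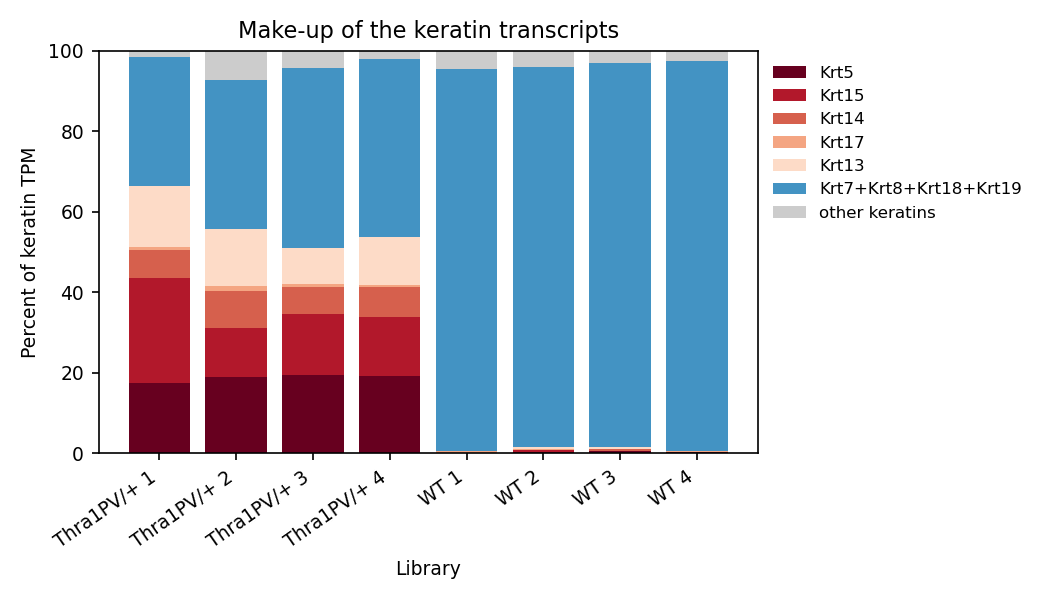
Percent of keratin TPM held by each basal keratin, Krt13, the simple keratins and all other keratins in each library. The basal keratins fill 41.4% to 51.4% in Thra1PV/+ libraries and under 1% in WT libraries, where simple keratins make up nearly all of the rest.

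Both clusters also hold keratins outside the group, and most of those were not called. In the type I cluster 11 of 24 other keratins were tested, 2 were called higher (Krt13 and Krt33b) and 0 lower, with a median log2 fold change of 0.95. Krt33b, a hair keratin, reached at most 0.954 CPM in Thra1PV/+ and 0.0209 CPM in WT libraries. Krt33b and Krt16 (at most 0.199 CPM in WT) passed the filter through the Thra1PV/+ libraries alone. Both could therefore only come out higher, and the called count and the median are partly set by that. Krt13, a keratin of suprabasal layers of mucosal squamous epithelium, lies beside Krt15 in the order of tested keratins and had 690 ± 139 CPM in Thra1PV/+ against 10.2 ± 9.44 CPM in WT libraries (log2 fold change 6.08, SE 1.22, adjusted p = 0.0944, edgeR). Krt13 was called in 1 of 8 fits with a library omitted, the one without WT library 1, and its adjusted p in edgeR reached 0.227 in the others. Krt19 lies between Krt15 and Krt14 and had a log2 fold change of -0.03 (SE 0.40, adjusted p = 0.988, edgeR). Krt16, between Krt14 and Krt17, was also higher in every Thra1PV/+ library, but was not called (log2 fold change 6.51, SE 1.49, adjusted p = 0.154, edgeR). Its transcript shares much sequence with Krt14.

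In the type II cluster, 14 of 25 others were tested, 1 was called higher and 0 lower, with a median log2 fold change of 1.07. Here Krt75 and Krt78 (at most 0.134 and 0.163 CPM in WT) passed the filter through the Thra1PV/+ libraries alone and could only come out higher. Krt78, a keratin of stratified epithelium, was the one called (5.96 ± 3.29 against 0.0947 ± 0.0798 CPM, adjusted p = 0.0304, edgeR), though not without Thra1PV/+ library 3 (adjusted p = 0.111). Krt6a and Krt6b, keratins of stressed epithelium that lie beside Krt5, had 54.9 ± 48.5 and 77.0 ± 82.6 CPM in Thra1PV/+ and 2.55 ± 3.86 and 3.02 ± 4.96 CPM in WT libraries. Both were higher in every Thra1PV/+ library than in any WT library, but neither was called (adjusted p = 0.326 and 0.365, edgeR). Their spread among Thra1PV/+ libraries was about as large as their means, unlike that of Krt5.

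**Figure D4:**
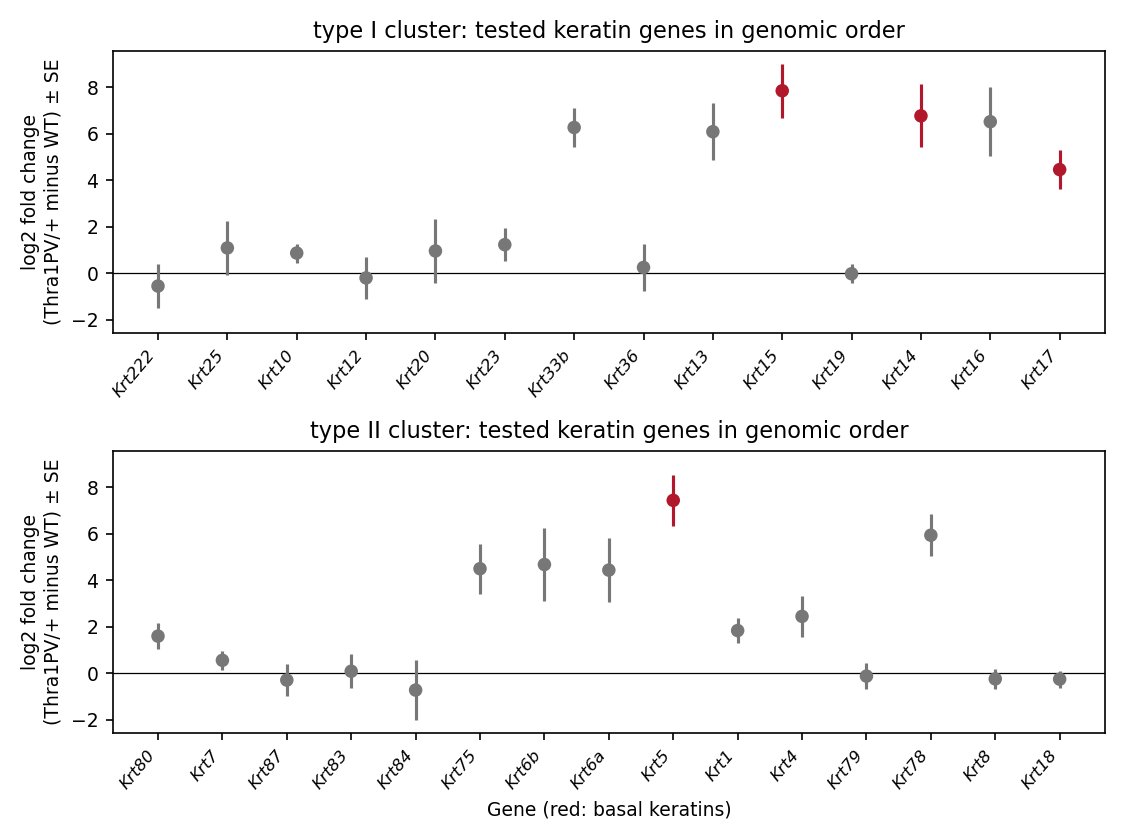
Log2 fold change (Thra1PV/+ minus WT) with its SE for each tested keratin gene of the type I (top) and type II (bottom) clusters in genomic order; red marks the basal keratins. Krt19, between Krt15 and Krt14, lies at -0.03.

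Other genes of the basal layer were taken from lists chosen with earlier results of these data known. Over the whole table edgeR called 0.924% of genes higher and 0.0660% lower, 0.990% in all. Across 4 lists of basal-layer partners, 42 genes were tested, 16 were called higher and 0 lower. Their median log2 fold change was 1.46, beside -0.05 for all genes tested. With each library left out in turn, 11 to 17 were called higher, fewest without Thra1PV/+ library 3 and most without WT library 1. A gene too low in WT to pass the filter there, such as Dsc3 (at most 0.0722 CPM), could only come out higher.

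Of 11 tested transcription factors of squamous lineage, 7 were called higher. They were Trp63, the master regulator of stratified epithelium (69.4 ± 18.6 against 1 ± 0.710 CPM, adjusted p = 0.00333, edgeR), Tfap2a, Tfap2c, Bnc1, Pitx1, Zfp750 and Grhl3. With each library omitted in turn (8 fits), Zfp750 was called only when WT library 3 was out. Grhl3 was called in 3 of them, those without Thra1PV/+ library 1, WT library 1 or WT library 3. Bnc1 lost its call without Thra1PV/+ library 3 or WT library 3, and the other 4 kept theirs in all 8. The adjusted p in edgeR reached 0.261 for Zfp750, 0.185 for Grhl3 and 0.121 for Bnc1. Of 12 genes of basal and lower squamous layers, 7 were called higher: the desmosomal cadherins Dsg3 and Dsc3, the desmosomal plaque protein Pkp1, Trim29, the protocadherin Fat2, and the Notch pathway genes Dlk2 and Jag2. Fat2 had 82.8 ± 12.7 against 0.530 ± 0.380 CPM (log2 fold change 7.28, SE 0.68, adjusted p = 0.00394, edgeR). Dsg3 was called in 2 of the 8 fits, those without WT library 1 or WT library 3 (adjusted p in edgeR up to 0.201 in the rest). Dlk2 lost its call without library 2 or library 3 of either genotype (adjusted p in edgeR up to 0.135).

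Hemidesmosome and basement membrane genes, which anchor the basal layer, were mostly not called. Of 12, only Col17a1, the hemidesmosomal collagen, was called higher, with 178 ± 29.0 against 1.23 ± 0.656 CPM (log2 fold change 7.17, SE 0.44, adjusted p = 0.00113, edgeR). Their median log2 fold change was 0.22, and 10 of the 12 had a value above 0. An unadjusted p under 0.05 in edgeR was found for 4, beside 9.77% of all genes tested. Col7a1 had 62.3 ± 13.6 against 21.1 ± 19.3 CPM (log2 fold change 1.56, SE 0.53). Its adjusted p was 0.37 by edgeR and 0.0796 by the DESeq2 Wald test. Itga6 had 201 ± 43.3 against 193 ± 95.3 CPM, and Itgb4 77.5 ± 2.34 against 54.4 ± 34.1 CPM. Of 9 genes that tie keratin filaments to junctions, 1 was called, the cornified-envelope and desmosome linker Evpl (log2 fold change 1.80, SE 0.19, adjusted p = 0.00721, edgeR). Of these 9, 5 had an unadjusted p under 0.05 in edgeR, beside 9.77% of all genes tested. Their median log2 fold change was 0.83. In 3 of them every Thra1PV/+ library was above every WT library, as in 3.55% of all genes tested. Of 14 keratins of suprabasal or stressed layers 11 were tested, and 2 were called higher, Krt13 and Krt78. In that list 7 were higher in every Thra1PV/+ library than in any WT library, as were 3.55% of all genes tested. They were Krt6a, Krt6b, Krt16, Krt1 and Krt75 beside the called ones. Another count, of unadjusted p under 0.05 in edgeR, was 9, beside 9.77% of all genes tested. The median log2 fold change of the list was 4.43, and the list was chosen with earlier results of these data known. Krt16, Krt75 and Krt78 had at most 0.199, 0.134 and 0.163 CPM in any WT library. These genes passed the filter through the Thra1PV/+ libraries alone, so they could only come out higher. The counts and the median of the list are partly set by that.

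Marker lists of other cell types were read beside the basal keratins. Of 8 smooth muscle genes 0 were called, 8 had an unadjusted p under 0.05 in edgeR (9.77% of all genes tested) and the median log2 fold change was -4.31. Of 6 tested neutrophil genes 0 were called and 4 had an unadjusted p under 0.05, with a summed level of 74.7 to 722 CPM in Thra1PV/+ and 7.94 to 127 CPM in WT libraries. Stroma genes had a median of -0.83 with 0 of 8 called. Genes of simple epithelium had a median of 0.03, with 0 of 10 called. The part of these cells in the keratin levels was not tested. Of 13 hair follicle keratins 1 was tested, and together they summed to at most 8.81 CPM in any library. Gland genes (2 tested, 0 called) summed to 12.5 to 147 CPM and mesothelium genes (2 tested, 0 called) to 17.6 to 144 CPM.

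A trace of the basal keratins was counted in the WT libraries, but not alike in all 4 of them. Whether this trace came from cells of the endometrium was not tested. As a percent of the Thra1PV/+ mean, Krt5 was at 0.0209%, 0.525%, 1.24% and 0.539% in WT libraries 1 to 4. Krt14 was at 0%, 0.719%, 2.43% and 0.526%, and Krt15 at 0.0147%, 1.17%, 0.260% and 0.301%. Krt17 was at 12.2%, 1.99%, 0.632% and 3.5%. WT library 1, with the high smooth muscle sum, was thus the lowest for Krt5, Krt14 and Krt15 and the highest for Krt17, and the part of the muscle in this was not tested.

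Some other squamous genes also had a trace that was lowest in WT library 1, and others did not. In WT library 1 Krt13 was at 0.0138%, Pkp1 at 0.0176%, Fat2 at 0.0691% and Trim29 at 0.0782% of the Thra1PV/+ mean, whereas in WT libraries 2 to 4 these 4 genes lay between 0.314% and 3.20%. Trp63 and Col17a1 were also lowest in library 1 but by less, at 0.660% and 0.343%. In WT libraries 2 to 4 Trp63 lay between 0.965% and 2.94% and Col17a1 between 0.494% and 1.19%. Dsc3 and Pitx1 had 0 counts in library 1, though Dsc3 had at most 4 in any WT library. Tfap2a lay between 1.15% and 1.73% in all 4 WT libraries, with library 4 the lowest. Jag2, at 12.1% to 31.6%, was well above a trace and lowest in library 3. The highest trace of Krt15 and Trp63 was in library 2, and that of Krt5, Krt14 and Krt13 in library 3. The WT means were 0.581% for Krt5, 0.920% for Krt14, 0.437% for Krt15 and 4.58% for Krt17. Leaving out 1 WT library at a time moved the WT mean of Krt5 between 0.362% and 0.767%, that of Krt14 between 0.415% and 1.23%, of Krt15 between 0.192% and 0.578% and of Krt17 between 2.04% and 5.90%. The lowest values came without WT library 3 for Krt5 and Krt14, without WT library 2 for Krt15 and without WT library 1 for Krt17.

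**Figure D5:**
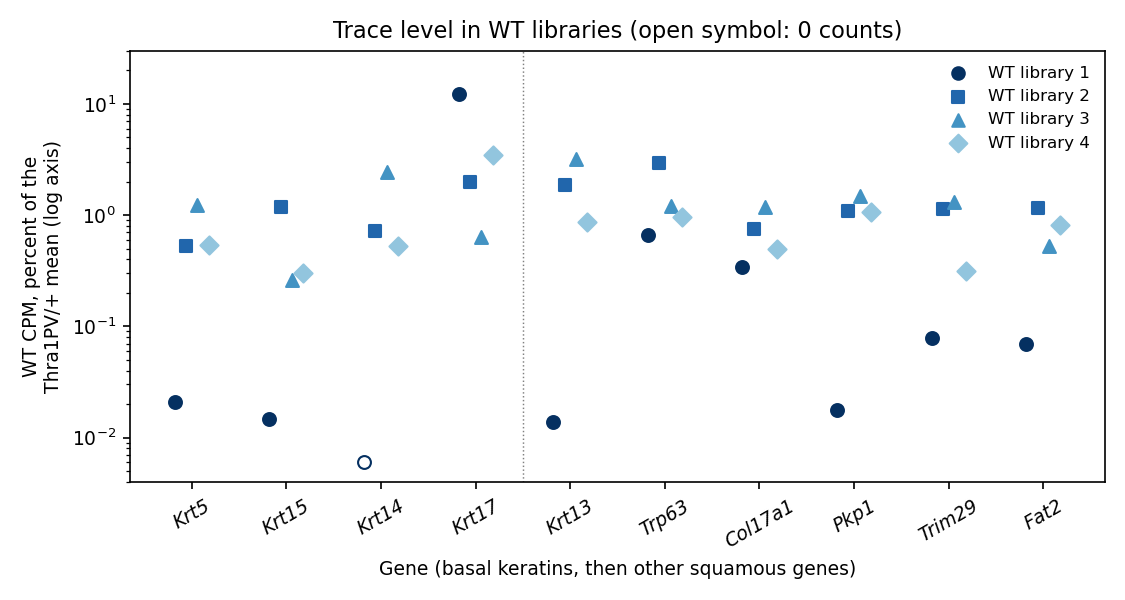
CPM in each WT library as a percent of the Thra1PV/+ mean (log axis) for the basal keratins and, right of the dotted line, other squamous genes; the open symbol, drawn at an arbitrary height, is 0 counts. WT library 1 is below the others for most genes but highest for Krt17, at 12.2%.

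Over the 8 libraries, the profiles of log2 CPM, each centred on its own mean, were compared by their root mean square difference. This is a description, and the 8 points share the genotype contrast that chose the members. Krt5 and Krt14 were close (0.64), as were Krt5 and Krt15 (0.96), and Krt14 and Krt15 were less so (1.28). Krt17 lay 3.03 to 3.57 from the other members, but 1.22 to 1.34 without WT library 1, so most of that distance rested on this library. Without WT library 1 the distance of Krt5 and Krt14 was 0.37, and without WT library 3 that of Krt14 and Krt15 was 0.67. Outside the group, the genes nearest to the mean profile of the 4 were Fat2 (0.36), Pkp1 (0.41), Trim29 (0.50), Pitx1 (0.54) and Kcnj16 (0.77). For single members the nearest were Pkp1 for Krt5 (0.52), Krt13 for Krt14 (0.54), Fat2 for Krt15 (0.95) and Pak6 for Krt17 (0.64). Without WT library 1 the nearest to the mean profile were Pkp1 (0.31), Fat2 (0.35), Col17a1 (0.36), Pak6 (0.42) and Dsc3 (0.46), and Kcnj16 was the nearest to Krt17 (0.42).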

How the data were processed

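Endometrium was laser-captured from frozen sections, and the authors trimmed reads with Trimmomatic and quantified them with Salmon against mm10; versions and annotation were not given in the sources used here. The authors deposited estimated counts per gene, not normalized, and TPM values. At any given rank, TPM differed by no more than 0.291 between libraries, the form that quantile normalization leaves. There, 1 column that matched no sample was not used.

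Estimated counts were rounded and tested with edgeR 4.0.16 (R 4.3.3), with filterByExpr (minimum count 10, minimum total 15), TMM and genotype as the only term. A call needed at least a 2-fold change and a Benjamini-Hochberg adjusted p, over 18174 genes, of at most 0.1. DESeq2 1.42.0, limma 3.58.1, other filters and scalings, a replicate block and leaving out each library were alternatives. The script was tested on simulated data. Intervals and floors (3 counts) cover counting error only. Same-numbered libraries of the 2 genotypes did not deviate together (correlations 0.269, -0.436, 0.340 and -0.159), so numbers were not taken as pairs.

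The members and all gene lists were chosen with earlier results of these data known. Named genes were the members, other keratins of the clusters with a mean of 50 CPM or more, up to 4 called genes per list by p, the nearest profiles, and Thra; the remaining called genes, neighbours and marker genes were named after their values were seen. Positions are from GENCODE M21 (GRCm38).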

Additional observations from a re-analysis of the deposited data

Results flagged for a closer look

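The share of keratin TPM held by the 4 basal keratins was 51.43% in Thra1PV/+ library 1, against 41.43% to 42.01% in the other 3 Thra1PV/+ libraries. It stood apart from them by Dixon's criterion (gap over range 0.942). Of 39 groups of 4 libraries checked, 1 exceeded the criterion. Chance gives about 1 in 20, or 1.95 of the 39, so the excess is no more than chance gives. The same library had the lowest summed level of simple keratins of its group, 1305 CPM.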

How the results depend on the processing

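Of all genes tested, 168 were called higher and 12 lower. With at least 10 counts in every library the numbers were 74 and 7, with DESeq2 568 and 223, and limma on log2(TPM + 0.1) called 20 lower. Numbers did not pair the libraries, and with the replicate block 75 genes were called higher and 7 lower. Leaving out each library gave 79 to 157 higher, fewest without Thra1PV/+ library 3, and 2 to 15 lower. Of the basal-layer partners, 16 were called, and 11 to 17 when each library was left out. With at least 10 counts in every library, which drops genes absent from a WT library, 7 were called. The DESeq2 Wald test called 21 of the partners higher, and the replicate block 13. The mean log2 Krt14 to Krt5 ratio was -1.72 in Thra1PV/+ and -1.26 in WT without length correction, and that of Krt17 to Krt5 -4.97 in Thra1PV/+. In WT endometrium the latter ranged from -3.10 to 0.25, changing sign without WT library 3. By estimated counts, the median ranks in Thra1PV/+ libraries were 56.5 for Krt5, 264 for Krt14, 118 for Krt15 and 5023 for Krt17, against 184, 412, 218 and 3760 by TPM. The causes were not tested. Of the other values recomputed, 176 stayed within 1.5 times the count or within the spread. For the folds of the members that spread was the SD within genotypes, 1.27 (Krt17) to 2.52 (Krt14) in log2. So wide a limit lets large shifts pass, such as that of Krt17 without WT library 1. The fold of each member kept its direction in every alternative that gave it a value; with at least 10 counts in every library Krt14 and Krt15 were not tested. The distances between profiles with a library left out were added after seeing the data. Leaving out each library gave 7.07 to 8.14 for Krt5, 6.40 to 7.94 for Krt14, 7.49 to 9.06 for Krt15 and 4.10 to 5.66 for Krt17.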
